A study of Mus musculus with 6 samples.

Results

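Small structured noncoding RNA genes were taken from the count table of hippocampal RNAseq as the genes that the GENCODE M21 annotation types as snoRNA, scaRNA, snRNA, misc_RNA or ribozyme and that reached a summed raw count of 60 over the 6 libraries. The rule left 85 genes of 3527 genes of these 5 types, in a table of 54838 genes. They were 45 of 1507 snoRNA genes, 7 of 51 scaRNA genes, 23 of 1385 snRNA genes, 10 of 562 misc_RNA genes and 0 of 22 ribozyme genes. Of the 3527 genes, 2705 had no count in any library. The threshold used the counts of both genotypes together, so that the genes were chosen by their measured level and not by their difference between genotypes, unless a gene passed through 1 genotype alone. A sum of at least 30 in each genotype was reached by 67 of the 85 genes, 7 fell below 30 in the wild-type libraries only and 11 in the transgenic libraries only.

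Each library was made from the hippocampus of 1 female mouse aged about 7 months. The wild-type group (n = 3) was compared with FVB/NJ-Tg(Orai1)Ibd mice (n = 3), which carry a human ORAI1 cDNA in a modified mouse Thy-1.2 cassette that drives expression in neurons. The transgenic mice come from 1 line. The labels give the molecule as polyA RNA and the design text speaks of total RNA, while most mature small structured RNAs have no poly(A) tail.

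Small structured RNAs work as folded RNAs in complexes with proteins. 7SL RNA, from Rn7s1 and Rn7s2, is the scaffold of the signal recognition particle, which brings ribosomes to the endoplasmic reticulum. 7SK RNA, from Rn7sk, holds the elongation factor P-TEFb inactive together with HEXIM1 and LARP7, and Y RNAs such as Rny1 bind the Ro60 and La proteins. These RNAs are made by RNA polymerase III. Box C/D snoRNAs guide 2'-O-methylation and box H/ACA snoRNAs guide pseudouridylation of ribosomal RNA, scaRNAs guide the same changes in spliceosomal snRNAs, and most of them are cut from introns of host genes. In brain, imprinted loci such as Rian and Snhg14 carry clusters of C/D snoRNAs.

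Sequences of RNAs on which the genotype comparison turned are shown first, as read from GRCm38 at the GENCODE M21 positions, 5' to 3'. Rn7sk lies at chr9:78175303-78175633 on the minus strand and Rny1 at chr6:47788069-47788180 on the minus strand. Rny3 at chr6:47781624-47781725, plus strand, and the neuronal RNA polymerase III transcript Bc1 at chr7:144914470-144914637, plus strand, are not among the 85 genes and are shown for comparison. Of the 331 bases of Rn7sk the first 300 are printed, and capitals mark runs of at least 3 A.
Rn7sk: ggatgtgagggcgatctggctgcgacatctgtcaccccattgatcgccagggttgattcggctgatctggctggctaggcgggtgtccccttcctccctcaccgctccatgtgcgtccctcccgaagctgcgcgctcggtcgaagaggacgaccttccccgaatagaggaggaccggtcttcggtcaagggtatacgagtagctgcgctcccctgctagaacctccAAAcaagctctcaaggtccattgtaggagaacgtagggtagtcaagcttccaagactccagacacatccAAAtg
Rny1: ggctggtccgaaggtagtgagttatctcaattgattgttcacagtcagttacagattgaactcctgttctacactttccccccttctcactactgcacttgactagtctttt
Rny3: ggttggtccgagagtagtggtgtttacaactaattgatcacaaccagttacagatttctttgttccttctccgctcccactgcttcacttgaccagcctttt
Bc1: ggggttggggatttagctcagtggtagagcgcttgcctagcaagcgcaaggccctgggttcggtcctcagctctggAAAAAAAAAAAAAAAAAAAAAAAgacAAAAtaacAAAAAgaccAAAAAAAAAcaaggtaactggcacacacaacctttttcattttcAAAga

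The longest A run had 3 bases in Rn7sk, 2 in Rny1, 2 in Rny3 and 23 in Bc1. Over the 85 genes the longest A run had a median of 3 bases and reached 6 at most. Rn7s1 and Rn7s2, both on chromosome 12, are annotated with 300 identical bases, so the split of counts between both genes is uncertain. Rny3 matches Rny1 at 80 of its 102 bases when both are aligned.

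Guide RNAs follow. The first group are snoRNA genes of the Rian introns (Gm23600 at chr12:109643748-109643818, Gm24564 at chr12:109631074-109631148 and DQ267102 at chr12:109656345-109656416, all plus strand) and Snord104 at chr11:106500993-106501062, plus strand, the snoRNA gene with the largest summed count. Capitals mark TGATGA, the core of box C, and CTGA, box D, where it lies in the last 20 bases. Gm23600 has the first motif and no CTGA in that window, so by the letters it counts as neither type.
Gm23600: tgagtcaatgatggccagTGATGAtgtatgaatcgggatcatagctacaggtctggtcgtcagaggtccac
Gm24564: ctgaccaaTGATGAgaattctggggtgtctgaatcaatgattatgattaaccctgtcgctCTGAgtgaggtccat
DQ267102: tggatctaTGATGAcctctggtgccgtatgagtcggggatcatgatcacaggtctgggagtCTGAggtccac
Snord104: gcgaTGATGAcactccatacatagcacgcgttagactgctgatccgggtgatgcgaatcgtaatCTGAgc

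Both motifs were found on the gene's strand in 23.3% of the 1507 annotated snoRNA genes. Gm25107 at chrX:147484293-147484421, minus strand, and Gm25129 at chr2:158379534-158379666, plus strand, were the H/ACA-type genes with an unadjusted p under 0.05 in the comparison below. Capitals mark ACA in the last 8 bases, which 46.8% of the 1507 genes have.
Gm25107: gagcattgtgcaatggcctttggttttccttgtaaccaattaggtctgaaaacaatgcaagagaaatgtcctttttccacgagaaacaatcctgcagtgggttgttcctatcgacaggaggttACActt
Gm25129: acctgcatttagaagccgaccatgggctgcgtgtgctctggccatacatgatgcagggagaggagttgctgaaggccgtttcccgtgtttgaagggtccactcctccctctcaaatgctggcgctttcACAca

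Gm24753 is a copy of U6, the catalytic snRNA of the spliceosome, which is also made by RNA polymerase III. Its 107 bases stand identically at 43 annotated genes, of which 3 (Gm24753, Gm24967 and Gm25583) passed the rule. Reads that map to 3 or more places fall below the mapping quality of 3 that the counting required, so levels of such copies are uncertain and give no measure of all U6 RNA. In all, 6 of the 85 genes share their whole sequence with another annotated gene.

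Total counts ran from 37414241 to 52497799 per library. Orai1, whose counts include the transgene as far as its human sequence aligned, rose from 7.47 ± 0.53 to 320 ± 9.5 CPM (counts per 1e6 counts of the scaled library; SD, n = 3 per genotype), with a log2 fold change of 5.42, and no library went against its label. The 6 markers of hippocampal neurons summed to 976 to 1090 CPM in all libraries, 1 of the 6 was higher at an adjusted p under 0.05, and none was at 0. Choroid plexus epithelium, tissue that lies beside the hippocampus, differed with genotype: its 20 markers summed to 4003 to 6162 CPM in the wild-type and 619 to 897 CPM in the transgenic libraries, 19 of 20 were lower at an adjusted p under 0.05, and none was at 0 in any library. The part of choroid plexus cells in the results that follow was not tested, and in whole tissue fewer cells of a type and less RNA per cell cannot be told apart. The p-values below measure the spread between 3 mice per genotype.

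Rn7s1, Rn7sk and Rny1 rose in transgenic mice and no other small structured RNA gene changed at an adjusted p under 0.05. Rn7s1 rose 3.20-fold, Rny1 2.36-fold and Rn7sk 2.09-fold in CPM. The edgeR quasi-likelihood test was fitted on all 19087 genes that passed a filter on low counts, among them 81 of the 85. Snora30, Gm24610, Gm22661 and Gm25076 did not pass. Of the 81 genes, 3 were higher and 0 lower, where 3.1% of all tested genes were higher and 4% lower, so that the share of higher genes was close to that of all genes. DESeq2 gave 2 higher and 0 lower, limma-voom 3 and 0, and edgeR without the filter on low counts 4 and 0. The gene added without the filter was Rn7s2. With GC offsets, and in each fit with 1 mouse left out, only 1 gene was higher, Rn7s1. Taken by the unadjusted p under 0.05, higher genes numbered 4 (13% of all tested genes) and lower genes 4 (14.8%). The genotypes did not overlap for 7 genes that were higher (17%) and 5 that were lower (17.9%), which are smaller shares of the 81 than those of all genes.

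The 3 called genes were all misc_RNA genes. The median log2 fold change of the tested genes was -0.04, beside -0.01 for all tested genes, and -0.07 without Rn7s1, Rn7s2, Rn7sk and Rny1. By class it was -0.09 for 41 snoRNAs, 0.08 for 7 scaRNAs, -0.16 for 23 snRNAs and 0.16 for 10 misc_RNAs, and -0.13 for the 6 misc_RNAs left without these 4. When a trend on gene length was taken out of each library, the median over all tested small RNA genes was -0.24, and with a trend on GC content taken out it was 0.05.

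**Figure D1:**
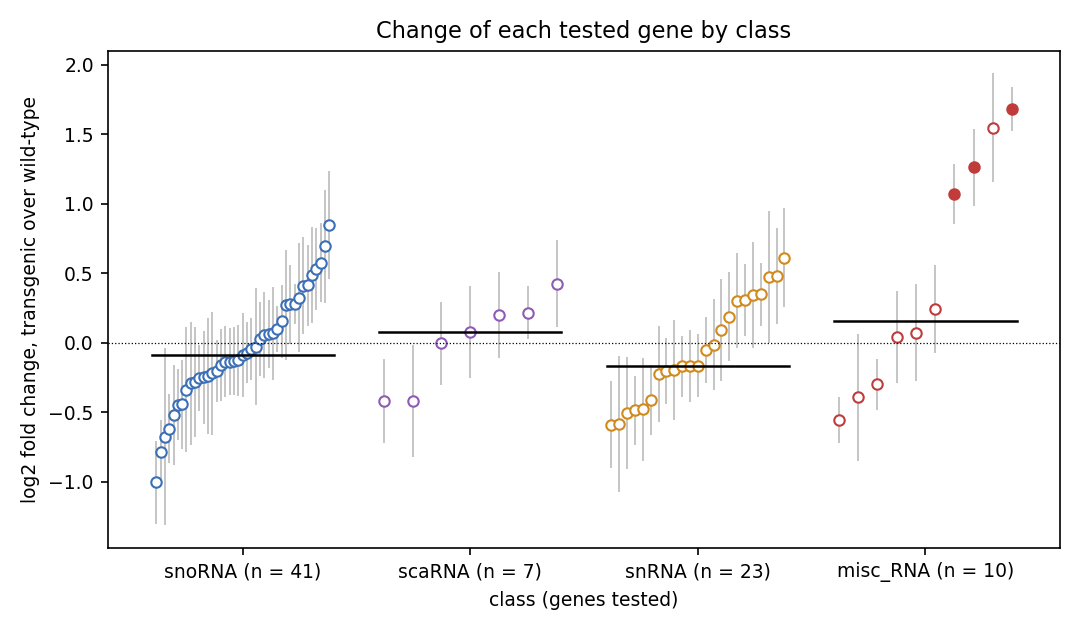
Log2 fold change (transgenic over wild-type, y axis) of each of the 81 tested genes by class (x axis), sorted within class, with bars of 1 standard error, filled points for an adjusted p under 0.05 and lines for the class medians. The 3 filled points are misc_RNA genes between 1.07 and 1.69, and the class medians lie between -0.16 and 0.16.

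As a share of all counts, the classes were rare. The misc_RNA genes took 0.00130%, 0.00162% and 0.00150% of counts in wild-type mice 1 to 3, and 0.00335%, 0.00307% and 0.00334% in transgenic mice 1 to 3. The genotypes did not overlap and their means differed 2.20-fold. Without Rn7s1 and Rn7s2 the log2 ratio of this class fell from 1.14 to 0.30. The snoRNA genes took 0.00251% ± 0.00034 in wild-type and 0.00237% ± 0.00018 in transgenic mice (SD, n = 3 each), a ratio of 0.947, and the ratios were 0.903 for scaRNAs and 0.944 for snRNAs. In these 3 classes the genotypes overlapped.

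Lengths of the genes above and below the threshold overlapped widely. The 85 genes were 63 to 343 bp long with a median of 129 bp, and the other 3442 genes of the 5 types had a median of 119 bp. Only 1 of the 85, the 63-bp snRNA gene Gm27343, was shorter than the 65 bases that a read had to keep after trimming, against 79 of the 3442. The shortest snoRNA genes were Gm23301 and Snord98 with 65 bp and the longest was Gm24119 with 246 bp. Among scaRNAs the ends were Gm25492 with 129 bp and Gm22009 with 343 bp, the longest snRNA was Gm25259 with 193 bp, and misc_RNAs ran from Rny1 with 112 bp to Rn7sk with 331 bp. By length, the median log2 fold change was -0.13 in 13 tested genes of 65 to 79 bp, -0.16 in 19 of 80 to 109 bp, -0.01 in 27 of 110 to 149 bp, 0.06 in 13 of 150 to 249 bp and 0.06 in 8 of 250 bp or more. Without Rn7s1, Rn7s2 and Rn7sk the 5 other genes of 250 bp or more had a median of -0.39. The called genes were 112, 300 and 331 bp long, and Gm25082 with 255 bp and Gm22009 lay among the long genes with a negative value.

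**Figure D2:**
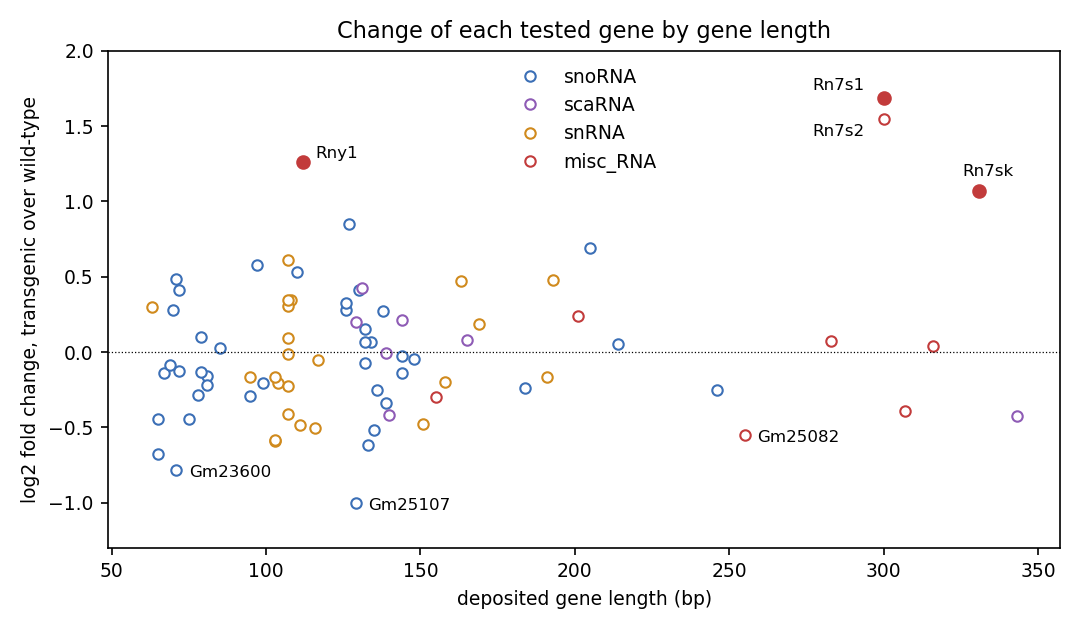
Log2 fold change (transgenic over wild-type, y axis) against the deposited gene length in bp (x axis) for the 81 tested genes, colored by class, with filled points for an adjusted p under 0.05. Rny1 (112 bp) stands alone among genes of its length, while Rn7s1, Rn7s2 and Rn7sk (300 to 331 bp) stand beside genes of like length that lie near or below 0.

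At the threshold of the rule, Gm25583 and Snora23 lay just inside with a sum of 60, and Gm22571 with 59 and Snord88c with 57 just outside. Counts of Snora23 were 17, 12 and 5 in wild-type and 7, 8 and 11 in transgenic mice. Counts of Gm22571 were 12, 14 and 8 against 8, 9 and 8. On either side of the threshold the libraries held few counts each, so that counting limits what such genes can show.

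Rn7s1 was the small RNA gene with the most counts. It had 284, 368 and 280 counts in wild-type mice 1 to 3 and 1129, 822 and 871 in transgenic mice 1 to 3. Every transgenic library lay above every wild-type library. In CPM it rose from 7.18 ± 1.66 to 22.99 ± 1.35 (SD, n = 3 each), and per kb of length from 24.0 ± 5.6 to 76.5 ± 4.2 FPKM (fragments per kb and 1e6 counts). The log2 fold change was 1.69 with a standard error (SE) of 0.16, and edgeR's adjusted p was 0.00376. It stayed under 0.05 in all fits tried, with each mouse left out in turn too, at a log2 fold change of 1.53 to 1.87.

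Rn7s2, its copy of the same sequence, had 10, 8 and 3 counts in wild-type and 23, 12 and 22 in transgenic mice. The genotypes did not overlap. The log2 fold change was 1.55 (SE 0.39) with an edgeR adjusted p of 0.0561, which was 0.0397 without the filter on low counts, 0.0983 with GC offsets, 0.0860 with length offsets and 0.0785 to 0.165 with any 1 mouse left out. Its sum of 21 in the wild-type libraries against 57 in the transgenic ones means that it passed the threshold of 60 through the group where it was high. Counted as 1 gene, Rn7s1 and Rn7s2 gave a log2 fold change of 1.68 (SE 0.15) and an edgeR adjusted p of 0.00338.

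Rn7sk had 71, 99 and 81 counts in wild-type and 203, 138 and 158 in transgenic mice. The lowest transgenic library was above the highest wild-type one. In CPM the level rose from 1.95 ± 0.52 to 4.06 ± 0.39 (SD, n = 3 each), with a log2 fold change of 1.07 (SE 0.21) and an edgeR adjusted p of 0.0338. With any 1 mouse left out, edgeR's adjusted p was 0.05001 to 0.102, and with GC offsets it was 0.0589.

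Rny1 had 11, 17 and 15 counts in wild-type and 36, 30 and 31 in transgenic mice. Here, too, the genotypes were apart. The level went from 0.336 ± 0.109 to 0.795 ± 0.029 CPM (SD, n = 3 each), with a log2 fold change of 1.26 (SE 0.28) and an edgeR adjusted p of 0.0422. The call was lost with any 1 mouse left out (edgeR adjusted p 0.0582 to 0.135), with GC offsets (0.0529) and with length offsets (0.0692), and DESeq2 gave Rny1 no adjusted p. In CPM, Rn7s1, Rn7sk and Rny1 were lowest in wild-type mouse 1, and Rn7s2 in wild-type mouse 3.

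**Figure D3:**
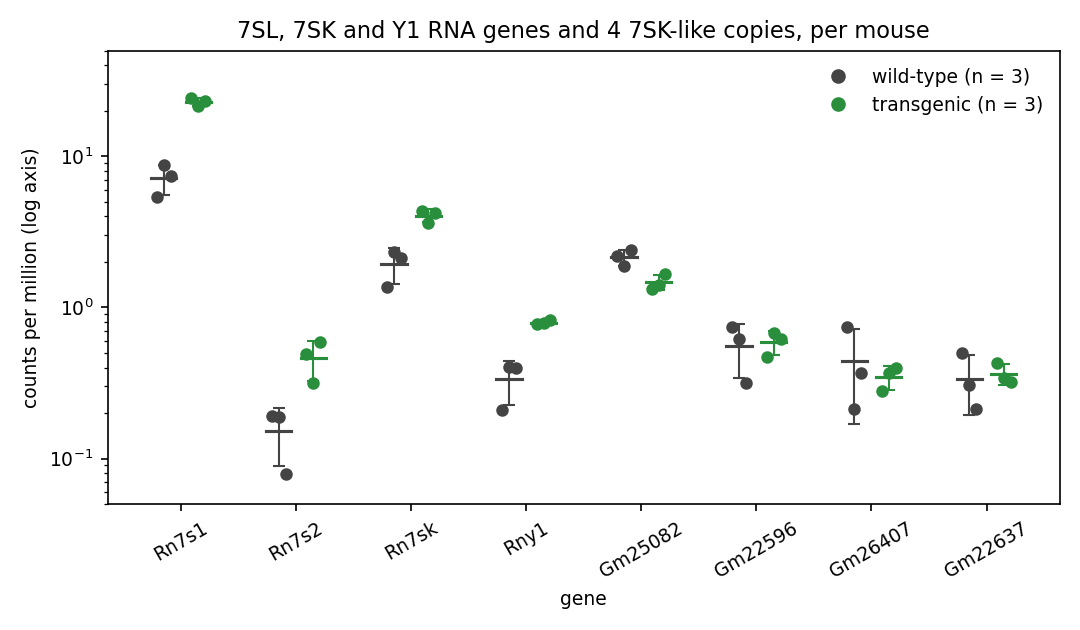
CPM (y axis, log scale) in each mouse for Rn7s1, Rn7s2, Rn7sk and Rny1 and for 4 genes with a 7SK-like sequence (x axis), with lines for means and bars of 1 SD (n = 3 per genotype). The transgenic mice lie above the wild-type mice for the first 4 genes, Gm25082 lies the other way, and the genotypes overlap for the last 3.

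Other RNAs of this kind were read beside them. Rny3, which encodes the Y3 RNA, had a summed count of 39 and was thus not among the 85 genes, with 5, 2 and 3 counts in wild-type and 11, 9 and 9 in transgenic mice. The genotypes did not overlap, wild-type mouse 1 was the highest of the wild-type mice in CPM, and without the filter on low counts its log2 fold change was 1.63 (SE 0.50) with an edgeR adjusted p of 0.0776. Bc1, which is also made by RNA polymerase III and holds an internal A-rich stretch, had 330, 155 and 255 counts in wild-type and 312, 212 and 208 in transgenic mice. These overlapped, and the log2 fold change was 0.09 (SE 0.22) with an edgeR adjusted p of 0.825. Terc, the telomerase RNA, had a sum of 21 counts, with 5, 8 and 2 in wild-type and 4, 2 and 0 in transgenic mice. The vault RNA gene Vaultrc5 had a sum of 14, with 1, 4 and 1 against 6, 1 and 1. The genotypes overlapped in both, and Rn7s6 was at 0 in all libraries. The ribozyme entries of Rmrp and Rpph1, the RNAs of RNase MRP and RNase P, were at 0 in all libraries. On its own strand Rmrp overlaps another entry with the same symbol, whose counts are not given here, and Rpph1 overlaps Ccnb1ip1.

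Genes over a ribosomal RNA copy moved with the same genotype. Gm42418 at chr17:39846958-39848788, a lincRNA gene annotated over a 45S ribosomal RNA copy, was chosen after its values were seen. It had 652, 962 and 913 CPM in wild-type and 1767, 1341 and 1422 CPM in transgenic mice, with a log2 fold change of 0.84 (SE 0.16) and an edgeR adjusted p of 0.0313. Its neighbor Gm26917, also chosen after its values were seen, gave 0.80 (SE 0.08, edgeR adjusted p 0.00527). Gm42418 was lowest in wild-type mouse 1 as well. The 70 histone genes with a Hist1h to Hist4h symbol, whose main messages lack a poly(A) tail, summed to 111 to 149 CPM in wild-type and 118 to 145 CPM in transgenic mice. The part of ribosomal RNA carry-over in the rise of the small RNA genes was not tested.

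Per mouse, the small RNA genes could be set against Gm42418 and against each other. Rn7s1 and Rn7s2 together gave 0.861, 0.926 and 0.818 counts per 100 counts of Gm42418 in wild-type and 1.40, 1.63 and 1.68 in transgenic mice. The ratio was 1.80-fold higher and the genotypes did not overlap. For Rn7sk the same ratio was 1.18-fold and for Rny1 1.36-fold higher, without overlap in either. Rn7s1 and Rn7s2 together gave 349 to 414 counts per 100 counts of Rn7sk in wild-type and 565 to 604 in transgenic mice, 1.52-fold higher without overlap. The ratio of Rny1 to Rn7sk was 1.15-fold higher, and there the genotypes overlapped. The exact two-sided permutation p was 0.1 for the first 4 of these ratios and 0.2 for the last, where 0.1 is the smallest that 3 against 3 mice can give. Adjusted over the 8 ratios computed, these were 0.16 and 0.2.

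**Figure D4:**
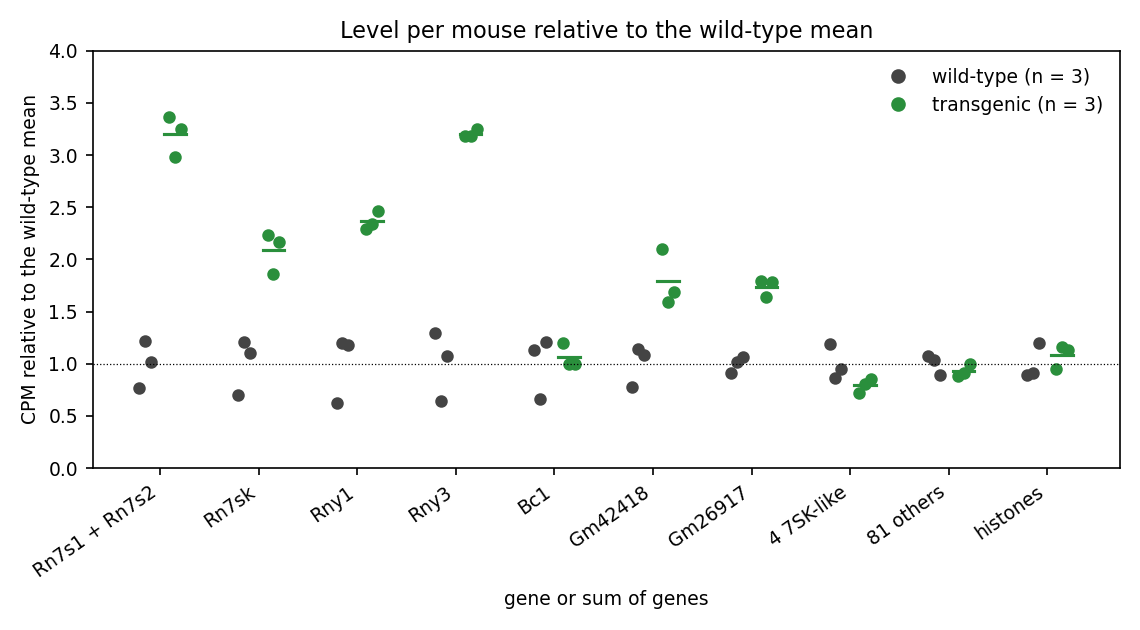
CPM in each mouse divided by the wild-type mean (y axis, linear, from 0) for single genes and sums of genes (x axis), with lines for the transgenic means (n = 3 per genotype). Transgenic means are 3.20 for Rn7s1 with Rn7s2, 2.09 for Rn7sk, 2.36 for Rny1, 3.21 for Rny3, 1.79 for Gm42418 and 1.74 for Gm26917. They are 1.06 for Bc1, 0.793 for the 4 7SK-like genes and 1.08 for the histone genes. For the 81 small RNA genes left without Rn7s1, Rn7s2, Rn7sk and Rny1, the 4 7SK-like genes among them, the mean is 0.930.

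Copies that resemble Rn7sk had values near or below 0. Of the other misc_RNA genes, 4 were 64.2% to 66.8% identical to Rn7sk, and the remaining ones 49.7% at most. Gm25082, in which 59 of 255 bases are also an exon of the splicing kinase gene Clk4, had 114, 79 and 91 counts in wild-type and 62, 54 and 62 in transgenic mice, and the genotypes did not overlap. Its log2 fold change was -0.55 (SE 0.17) with an edgeR adjusted p of 0.0829, while Clk4 gave -0.02. Gm22596, Gm26407 and Gm22637, in introns of Dnttip1, Impact and Fermt2, gave log2 fold changes between -0.39 and 0.07 with overlapping genotypes. Unlike Rn7sk, all 4 lie in a host gene on their strand, so fragments of unspliced host RNA can be among their counts. Counts of Rn7sk per 100 counts of these 4 genes were 32.6, 78.0 and 64.8 in wild-type and 174, 129 and 141 in transgenic mice, 2.68-fold higher without overlap (exact permutation p 0.1, adjusted over the 8 ratios 0.16). The other 2 misc_RNA genes were Gm27544, which shares 50 of its 155 bases with exons of Rmst, with a log2 fold change of -0.30, and Vis1 with 0.24, and in both the genotypes overlapped.

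Among the 23 snRNA genes, 15 were U6-like (at least 72.6% identical to Gm24753) and none changed at an adjusted p under 0.05. Their median log2 fold change was -0.17, with values from -0.59 to 0.61. Gm25047, with 100, 73 and 69 counts in wild-type and 50, 62 and 78 in transgenic mice, had the largest sum, and its log2 fold change was -0.20 (SE 0.24). Gm24060, in an intron of Cyth1, and Gm23458, in an intron of Bcl7a, followed with -0.17 (SE 0.22) and 0.19 (SE 0.32). The genotypes overlapped in all 3. In CPM they were apart and lower for Gm26446, in an intron of Ppp1r7, with 22, 14 and 13 against 15, 9 and 6 counts (log2 fold change -0.59, SE 0.31, edgeR adjusted p 0.265), and for Gm22716, in an intron of Ep400 (-0.41, SE 0.25). In CPM they were apart and higher for Gm23318, in an intron of Mtor (0.35, SE 0.23, edgeR adjusted p 0.381). The copies that share the U6 sequence had sums of 60 to 70, and Gm24967 gave 0.61 (SE 0.36), Gm25583 0.09 (SE 0.37) and Gm24753 -0.01 (SE 0.33). With sums of 29 in wild-type and 41 in transgenic mice, Gm24967 passed the threshold of 60 through the group where it was high.

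The log2 fold change was negative for 24 of the 41 tested snoRNA genes, and none passed an adjusted p of 0.05. By the motifs shown above, 10 genes were C/D-like, 24 H/ACA-like, 2 held both motifs and 9, Gm23600 among them, neither. Median log2 fold changes were 0.04 for 10 tested C/D-like and -0.06 for 20 tested H/ACA-like genes. Per length, Gm23600 had the highest mean in wild-type mice, at 33.7 ± 8.2 FPKM, followed by Snord104 at 26.2 ± 0.51 FPKM and Gm24966 at 24.0 ± 3.9 FPKM (SD, n = 3 each). Gm23600 did not differ from Snord104 beyond its spread. These genes of 71, 70 and 79 bp are little longer than the shortest kept read of 65 bases, so their values per length are uncertain beside those of longer genes. Rn7s1, at 24.0 ± 5.6 FPKM in wild-type mice, did not differ from Gm24966 beyond their spread.

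The most negative log2 fold change among snoRNA genes was that of Gm25107, an H/ACA-like gene in an intron of Lrch2. It had 18, 18 and 16 counts in wild-type and 11, 8 and 5 in transgenic mice. Its genotypes did not overlap, and with sums of 52 and 24 it passed the threshold of 60 through the group where it was high. Its log2 fold change was -1.005 (SE 0.30) with an edgeR adjusted p of 0.0811, beside -0.38 (SE 0.13, edgeR adjusted p 0.111) for Lrch2.

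The Rian locus carried 3 of the snoRNA genes. Gm23600 had 143, 115 and 65 counts in wild-type and 71, 58 and 42 in transgenic mice. In CPM every transgenic library lay below every wild-type one, although the raw counts overlapped. Its log2 fold change was -0.79 (SE 0.23) with an edgeR adjusted p of 0.0767, which went to 0.0404 without wild-type mouse 3 and ran up to 0.253 with another mouse left out. Gm24564 gave -0.45 (SE 0.26) and DQ267102 -0.13 (SE 0.26), both with overlapping genotypes. Rian itself gave -0.13 (SE 0.07, edgeR adjusted p 0.254). Counts of Gm23600 per 100 counts of Rian were 0.317, 0.344 and 0.193 in wild-type and 0.212, 0.185 and 0.145 in transgenic mice, and these overlapped (exact permutation p 0.2, adjusted over the 8 ratios 0.2).

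Other snoRNA genes with many counts were less apart. Snord104, in no host gene on its strand, had 96, 79 and 68 counts in wild-type and 95, 82 and 94 in transgenic mice, which in CPM did not overlap (1.83 ± 0.04 against 2.23 ± 0.25, SD, n = 3 each). Its log2 fold change was 0.28 (SE 0.14) with an edgeR adjusted p of 0.246, and 0.030 with length offsets. Gm24966, in an intron of the imprinted Snhg14, gave 0.10 (SE 0.16), beside -0.38 (SE 0.11, edgeR adjusted p 0.0749) for Snhg14. Gm25129, in an intron of Snhg11, had 148, 100 and 60 counts in wild-type and 84, 50 and 49 in transgenic mice. These overlapped, with a log2 fold change of -0.62 (SE 0.25, edgeR adjusted p 0.154), beside -0.06 for Snhg11.

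None of the 7 scaRNA genes changed at an adjusted p under 0.05. Gm22009, in an intron of the importin gene Kpna4, had 185, 101 and 106 counts in wild-type and 59, 112 and 89 in transgenic mice. Transgenic mouse 1 was the lowest and wild-type mouse 1 the highest, and the others overlapped (log2 fold change -0.42, SE 0.30). Gm22442, in an intron of Chd3, gave 0.22 (SE 0.19) without overlap in CPM, and Gm25492, in an intron of Bud23, gave 0.20 (SE 0.31) with overlap.

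Most of the small RNA genes lay inside another gene. A host on the same strand was found for 69 of the 85, with 64 in introns and 5 overlapping an exon of the host, in 67 host genes, and 16 had none. Fragments of unspliced host RNA that cover an intronic gene would be counted with it and cannot be told apart from the mature RNA, and in the 5 genes that overlap a host exon, 28 to 196 bases lie outside it. Rn7s1, Rn7s2, Rn7sk and Rny1 were all among the 16 genes without a host. The median log2 fold change was -0.13 for 61 tested intronic genes, -0.30 for 5 exonic genes and 0.24 for the 15 tested genes without a host, or -0.04 for the 11 left without Rn7s1, Rn7s2, Rn7sk and Rny1.

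Of 66 tested genes with a tested host, 44 had the sign of the host. Hosts ranged from -0.38 to 0.41 in log2 fold change, and the small RNA genes from -1.005 to 0.85. Both ends of the latter are genes that fell below 30 counts in 1 genotype, Gm25107 (52 in wild-type, 24 in transgenic) and Gm22027 (29 in wild-type, 48 in transgenic). Spearman's rho between both was 0.40 over 66 genes in 64 hosts, which share the same 6 libraries. Of the 64 hosts, 6 were higher and 1 lower at an adjusted p under 0.05, beside 3.1% and 4% of all tested genes, and the difference from that background was not tested. The small RNA genes in ribosomal protein genes mostly differed in sign from their hosts, which was not tested. The 8 hosts gave 0.19 to 0.31, 5 of them higher at an adjusted p under 0.05, while the 8 small RNA genes had a median of -0.17 and 2 of them the sign of the host. Rnu73b, in an intron of Rps3a1, gave 0.49 (SE 0.35), and Snord72, in an intron of Rpl37, gave -0.22 (SE 0.44). Among those that differed in sign, Gm23301 (42 in wild-type, 28 in transgenic) and Gm27326 (36 in wild-type, 27 in transgenic) fell below 30 counts in transgenic mice. Both passed the threshold of the rule through the group where they were high, which favored their negative sign. Gm23136, Snord55, Snord72 and Snord42b also differed in sign and reached 30 counts in each genotype.

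**Figure D5:**
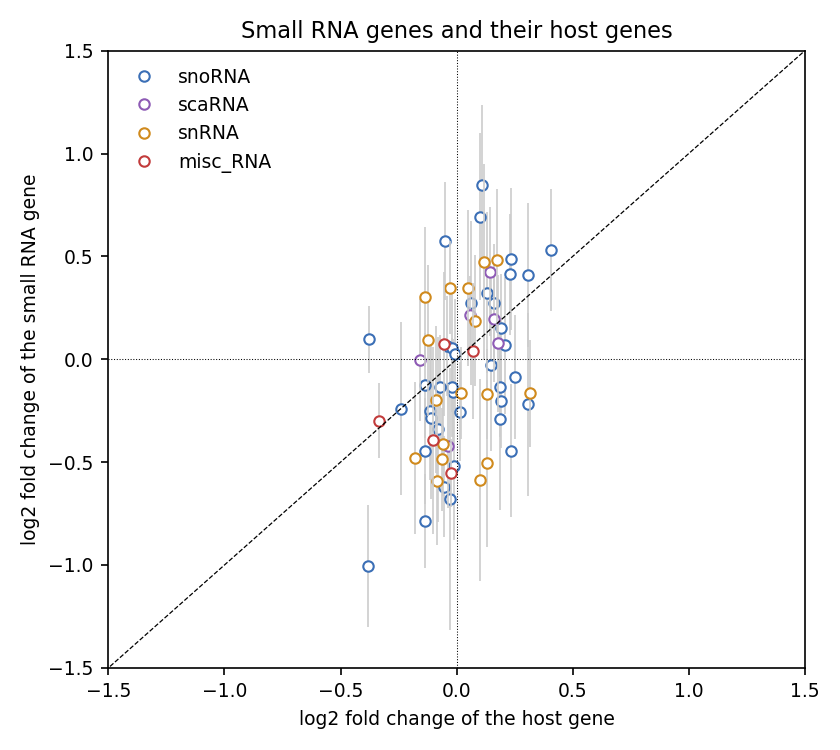
Log2 fold change (transgenic over wild-type) of 66 small RNA genes (y axis, bars of 1 standard error) against that of the host gene on the same strand (x axis), colored by class. The dashed line marks equal change, and the hosts spread from -0.38 to 0.41 while the small RNA genes spread from -1.005 to 0.85.

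Genes of the proteins that bind, build or process these RNAs were looked up from a list of 98, and all 98 were tested. Of these, 2 were higher and 2 lower, shares below the 3.1% and 4% of all tested genes, and the median log2 fold change was 0.07. Hexim1, whose protein binds 7SK RNA to inhibit P-TEFb, rose from 58.3 ± 1.9 to 70.03 ± 0.45 CPM (SD, n = 3 each), with a log2 fold change of 0.26 (SE 0.04, edgeR adjusted p 0.0236). Ssb, the gene of the La protein that binds the 3' ends of RNA polymerase III transcripts, fell from 119 ± 2.3 to 103 ± 1.6 CPM (log2 fold change -0.21, SE 0.04, edgeR adjusted p 0.0291). For both, the genotypes did not overlap. The other 5 genes of the 7SK and La group did not pass the test.

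Pop5, a subunit of RNase P and RNase MRP, rose with a log2 fold change of 0.39 (SE 0.06, edgeR adjusted p 0.0212), and Parp4, the vault poly(ADP-ribose) polymerase, fell by 0.41 on the log2 scale (SE 0.08, edgeR adjusted p 0.0284). None of the 8 genes of the signal recognition particle proteins passed the test, with log2 fold changes from -0.21 to 0.16. All 8 Sm core genes were positive, from 0.01 to 0.28, and none passed. No gene of the box C/D proteins, the H/ACA proteins, the assembly factors, the LSm proteins or the SMN complex passed, and Strap, which binds the SMN complex, gave -0.05 (SE 0.05, edgeR adjusted p 0.522).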

How the data were processed

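Hippocampal RNA of 3 wild-type and 3 transgenic females was sequenced, 1 library per mouse, and libraries were assigned to genotypes by their labels. The authors trimmed reads with Trimmomatic, kept those of at least 65 bases, aligned them to mm10 with STAR and counted fragments per gene with featureCounts v1.5.0-p1 on Ensembl 95 (strand setting 2, mapping quality of at least 3, primary alignments). The labels give the run both as paired-end and as single reads, and the counting command took read pairs as fragments. The authors deposited these counts without normalization, with exonic gene lengths. Total counts ran from 37414241 to 52497799, and counting error limits genes with few counts.

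Gene types, positions and sequences came from GENCODE M21 (GRCm38), in which 54809 of 54838 genes were found. Transgenic mice were tested against wild-type mice with edgeR's quasi-likelihood test (edgeR 4.0.16 in R 4.3.3) on 6 libraries without covariates, after filterByExpr with a minimum count of 10 and TMM scaling, and Benjamini-Hochberg adjustment ran over 19087 genes with a threshold of 0.05. The study's own tool, NOISeq, was not used here. CPM are counts per 1e6 of the TMM-scaled total, and FPKM were computed here from counts, lengths and totals. The fit was also run on simulated counts with changed genes drawn from all tested genes, not from the small RNA genes. The outcome is not reported here. Alternatives were other scalings (DESeq2 size factors, total counts, upper quartile), DESeq2 1.42.0, limma-voom (limma 3.58.1), no filter, each mouse left out, the replicate block, GC and length offsets (loess) and other thresholds of the rule. Counting Rn7s1 and Rn7s2 as 1 gene was chosen after seeing the data.

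The genes and lists were chosen with earlier results of these data known. Named were genes with an adjusted p under 0.05, the 3 of each class with the largest sums, Rn7s1, Rn7s2, Rn7sk, Rmrp, Rpph1 and Terc, the 5 that rose and the 5 that fell most among those whose groups did not overlap, genes next to the threshold, the shortest and longest of each class, their hosts, partner genes with an adjusted p under 0.05 with Strap, and Orai1. Other genes were named after their values were seen. A host contains the gene wholly on its strand, and motifs were searched on the gene's strand. Identity is the share of matching bases of the shorter sequence in a global alignment (Biopython 1.88), with 60% taken as 7SK-like and 70% as U6-like. The sequences of Rn7s1 and Gm24753 are not reported here.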

Additional observations from a re-analysis of the deposited data

How the results depend on the processing

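Rn7s1 was higher at an adjusted p under 0.05 in every alternative tried. Instead of 3 genes, 1 was higher with GC offsets, 1 with GC offsets and the replicate block, 1 with length offsets and the replicate block, and 1 in each fit without 1 mouse (1 to 1), while DESeq2 and length offsets gave 2 each and no filter 4. Lower genes were 1 with length offsets and the block (Gm23600, adjusted p 0.0284) and 0 to 1 without 1 mouse. With length offsets, alone and with the block, medians of the log2 fold change were -0.24 and -0.25 over all tested small RNA genes, -0.34 and -0.34 for snoRNAs, -0.12 and -0.12 for scaRNAs, -0.35 and -0.35 for snRNAs, and -0.0075 and -0.011 for misc_RNAs. With GC offsets, alone and with the block, the median was 0.050 and 0.062 over all, 0.033 and 0.050 for snoRNAs and 0.039 and 0.030 for snRNAs. Without 1 mouse the medians ran from -0.07 to 0.04 over all, -0.09 to 0.02 for snoRNAs, -0.083 to 0.21 for scaRNAs, -0.11 to 0.023 for snRNAs and 0.040 to 0.41 for misc_RNAs. Without Rn7s1 and Rn7s2 the log2 ratio of the misc_RNA share was 0.30. The sign turned for Gm24966 with length offsets (-0.15, and -0.14 with the block) and between -0.023 and 0.19 without 1 mouse, for Gm25047 with GC offsets (0.039, and 0.019 with the block) and between -0.42 and 0.024 without 1 mouse, for Gm24060 with GC offsets (0.14, and 0.15 with the block), for Gm23458 with length offsets (-0.00018) and for Gm25492 with length offsets (-0.0083). Leaving out a mouse lowers the number of libraries, and for the other settings the cause was not tested.

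The labels number the mice of both genotypes 1 to 3 without saying that a number marks anything shared. For mice with the same number, deviations from the group means correlated with a mean r of 0.14 (-0.36 to 0.40 over 3 pairs, 11189 genes), so the numbers were not taken as pairs. With the replicate block 2 genes were higher and 0 lower, and Rny1 had an adjusted p of 0.0598.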
